A study of Mus musculus with 6 samples.

Results

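The genes of the piRNA pathway and of the germ granules were described in leptotene and zygotene (L/Z) spermatocytes that had lost the translation elongation factor eEF1G. The set was a list of 32 mouse genes given by name for their known function, of 54532 genes in the count table, and no threshold on a measured value decided membership. All 32 were found once in the table, 30 had at least 1 read, and 27 passed the filter on low counts and were tested.

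Messenger RNA of sorted L/Z spermatocytes was sequenced from male mice at 12 days postpartum (dpp), with 3 libraries labelled control and 3 labelled Eef1g-cKO. The control libraries carry the genotype label wild type, and the study's methods describe littermate controls; whether these carried the floxed allele or the Cre transgene is not given in the sources used here. In Eef1g-cKO, on a C57BL/6J background, Stra8-GFPCre removes part of the floxed Eef1g gene in male germ cells from type A1 spermatogonia onwards, so that the sorted cells are descendants of cells in which the Cre had already been active. The cells were sorted by flow cytometry and their cDNA was amplified in full length before sequencing, and whether each library came from 1 animal or from several is not given in the sources used here. The p-values therefore measure only the spread between these libraries, which may be technical.

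piRNAs are small RNAs of the germ line that guide PIWI proteins to transcripts of transposons and other targets. Long precursors are unwound, cut at the mitochondrial surface, trimmed and methylated at the 3′ end, and much of this takes place in cytoplasmic granules (nuage, intermitochondrial cement and later the chromatoid body) that are held together by Tudor domain proteins binding methylated arginines of the PIWI proteins. In the mouse testis, MILI (Piwil2) and MIWI2 (Piwil4) serve transposon silencing in fetal gonocytes, MILI remains through the spermatogonial and spermatocyte stages, and MIWI (Piwil1) is abundant from pachytene onwards.

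The starting sequences of 4 called members are shown because they are the members of largest change in each direction for which a RefSeq promoter window was at hand. A window runs from 250 bases before to 50 bases after a RefSeq start (build GRCm38.p6), and a window was matched by symbol for 25 of the 32 members. Capitals mark 3 motifs searched on both strands: the E-box CACGTG, the MYB core TAACNG and the STRA8 site CNCCTCAG. Stk31 (chr6:49395289-49395588, plus strand) and Gtsf1 (chr15:103430378-103430677, minus strand) had more reads in Eef1g-cKO, and Piwil1 (chr5:128735996-128736295, plus strand) and Henmt1 (chr3:108940307-108940606, plus strand) had fewer.
Stk31: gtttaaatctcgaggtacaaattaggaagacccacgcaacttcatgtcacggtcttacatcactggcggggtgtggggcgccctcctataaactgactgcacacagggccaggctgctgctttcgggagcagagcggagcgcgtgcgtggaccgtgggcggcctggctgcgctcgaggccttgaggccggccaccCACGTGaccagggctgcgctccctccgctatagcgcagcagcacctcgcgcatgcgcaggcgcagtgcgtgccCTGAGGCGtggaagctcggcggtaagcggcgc
Gtsf1: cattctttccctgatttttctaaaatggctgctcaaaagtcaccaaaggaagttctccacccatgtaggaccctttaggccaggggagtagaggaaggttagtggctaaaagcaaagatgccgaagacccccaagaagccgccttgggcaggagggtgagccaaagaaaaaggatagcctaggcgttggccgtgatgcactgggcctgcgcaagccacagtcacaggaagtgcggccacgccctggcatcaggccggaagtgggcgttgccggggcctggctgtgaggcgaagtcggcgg
Piwil1: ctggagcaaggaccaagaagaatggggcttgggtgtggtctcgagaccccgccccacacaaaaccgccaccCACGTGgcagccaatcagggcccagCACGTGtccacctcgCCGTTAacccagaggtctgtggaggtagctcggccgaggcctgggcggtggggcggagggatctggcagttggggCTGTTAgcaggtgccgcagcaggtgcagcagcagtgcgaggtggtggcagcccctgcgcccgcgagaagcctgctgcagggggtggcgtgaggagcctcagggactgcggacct
Henmt1: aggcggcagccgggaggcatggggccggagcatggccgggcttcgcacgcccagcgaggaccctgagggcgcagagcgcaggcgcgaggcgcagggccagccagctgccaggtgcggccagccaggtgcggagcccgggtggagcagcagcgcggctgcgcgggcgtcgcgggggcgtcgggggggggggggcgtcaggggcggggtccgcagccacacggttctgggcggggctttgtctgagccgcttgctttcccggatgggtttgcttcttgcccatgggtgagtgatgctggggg

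The Piwil1 window held the E-box at positions -179 and -154 and the MYB core at -139 and -64, counted from the start site. The printed Stk31 window held 1 E-box at -55 and 1 STRA8 site at 19, and the windows of Gtsf1 and Henmt1 held none of these letters. That Stk31 window ends before the gene's start in the count table (49395604). A second Stk31 window (chr6:49395354-49395653), whose start site is that start, has the same E-box at -120 and the same STRA8 site at -47. The printed windows of Piwil1 and Henmt1 lie inside the gene spans of the count table and not at their outer starts. Over the 25 members with a window, the E-box stood in 10 (40.0%), against 8.09% of 27025 genes with a window and 13.0% of the 6474 of them that were tested. These members were Ddx25, Ddx4, Fkbp6, Mael, Mov10l1, Piwil1, Pld6, Stk31, Tdrd1 and Tdrd9. The MYB core stood in 7 of the 25 members (28.0%), against 25.9% of all genes and 22.3% of the tested genes, and the STRA8 site in 6 (24.0%), against 9.12% and 11.8%. The E-box was present in windows of genes that rose (Stk31, Ddx4), that fell (Piwil1) and that were not called (Mael). A match of letters is a description and not a binding site.

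The libraries held between 763133 reads (Eef1g-cKO 3) and 2617648 reads (Eef1g-cKO 2), and 3 reads, taken as the floor, correspond to between 1.18 and 4.63 counts per 1000000 reads (CPM) after scaling. No molecular identifiers were used, so that the floor and the counting intervals cover counting error only. Eef1g itself fell from 220 ± 7.34 to 136 ± 16.0 CPM (SD, n = 3 each; log2 fold change -0.68, SE 0.20, adjusted p = 0.029 by edgeR), and the call was lost without Control 1, Control 2, Control 3 or Eef1g-cKO 1, at log2 fold changes of -0.66, -0.66, -0.71 and -0.66. The counts cover the whole gene, so that reads outside the deleted part also contribute. The sorted cell type was checked by its markers. The summed level of 11 L/Z markers was 9656 to 10587 CPM in control and 19148 to 24828 CPM in Eef1g-cKO, and that of 11 spermatogonial markers was 1513 to 1744 against 705 to 844 CPM. Much of the L/Z sum was Sycp1 alone, at 4814.7 to 5252.6 CPM in control and 8557.9 to 13147.5 CPM in Eef1g-cKO. Of the tested markers, 5 of 10 L/Z genes rose, Sycp1 and Sycp2 among them, and 1 fell, while 5 of 6 spermatogonial genes fell, Dmrt1 and Kit among them. The part of these shifts in the results on the members was not tested, and in bulk libraries fewer cells of a type and less RNA per cell cannot be told apart.

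Markers of other testis cells moved with genotype too, and their part in the results on the members was not tested. Sertoli cell markers (11 genes, led by Aard and Clu) summed to 160 to 481 CPM in control and 26.3 to 91.4 CPM in Eef1g-cKO, and 3 of 5 tested fell. Peritubular and stromal markers (7 genes, led by Dcn and Col1a2) summed to 190 to 333 against 18.5 to 75.3 CPM, and 4 of 5 tested fell. Markers of pachytene and later germ cells (10 genes, led by Adam2 and Ldhc) were low in both groups, at 30.5 to 35.7 CPM in control and 4.63 to 30.7 CPM in Eef1g-cKO, with Acrv1, Acr and Prm2 at 0 in every library and neither of the 2 tested genes called. Leydig cell markers (5 genes, led by Star and Insl3) stayed between 1.57 and 10.7 CPM in all libraries, and blood and macrophage markers (6 genes, led by Hbb-bs and Hba-a1) ranged from 3.23 to 75.7 CPM with no call.

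**Figure D1:**
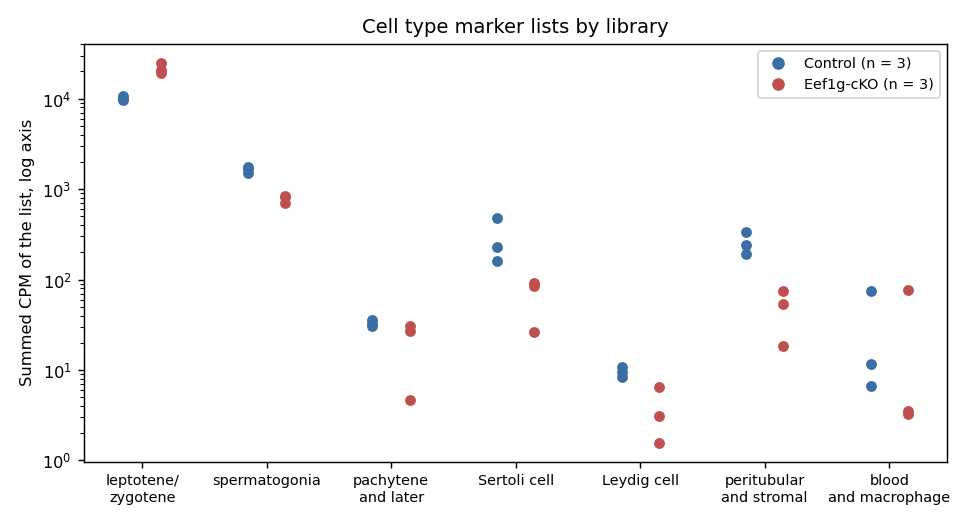
Summed level (CPM, log axis) of 7 cell type marker lists, with 1 point per library (3 control, 3 Eef1g-cKO). The L/Z list lay higher in all Eef1g-cKO libraries (19148 to 24828 CPM against 9656 to 10587), and the spermatogonial, Sertoli and stromal lists lay lower.

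In control L/Z spermatocytes most members were well expressed. The median level per gene length over the 27 tested members was 19.9 FPKM (reads scaled by depth and by gene length, computed here from the counts and the lengths in the table), against 9.37 FPKM for all 8513 tested genes, and 20 of the 27 lay above the latter. Stk31, a testis protein with a Tudor and a kinase-like domain, stood highest at 252 ± 9.15 FPKM (SD, n = 3). It was followed by Mael, an HMG-box granule protein, at 170 ± 15.9, by the DEAD-box helicase Ddx4 (MVH) at 163 ± 11.4 and by the nuclear silencing factor Tex15 at 137 ± 18.2 FPKM. The control ranges of Stk31 and Mael did not overlap, whereas neighbours from Mael to Tex15 overlapped. Fkbp6 (93.3), Tex19.1 (75.9) and Gtsf1 (71.6) came next, then Piwil2 (61.7), Asz1 (61.3) and Rnf17 (48.7 FPKM).

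Below these, the control means of Tdrkh, Mov10l1, Tdrd7, Tex19.2, Gpat2, Ddx25, Henmt1, Tdrd5, Tdrd9 and Tdrd1 ran from 36.5 down to 10.5 FPKM. Those of Btbd18, Pnldc1, Tdrd12, Exd1, Morc1, Piwil1, Pld6 and Tdrd3 ran from 9.06 to 3.57 FPKM. Piwil4 (1.32 FPKM) and Spocd1 (0.96 FPKM) were lowest among the members with reads. Tdrd6, a chromatoid body scaffold, and Gtsf1l were at 0 reads in all 6 libraries. Along this order, the ranges of neighbours were separate at 8 steps: Stk31 to Mael, Tex15 to Fkbp6, Gtsf1 to Piwil2, Rnf17 to Tdrkh, Tdrkh to Mov10l1, Mov10l1 to Tdrd7, Btbd18 to Pnldc1 and Tdrd3 to Piwil4.

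**Figure D2:**
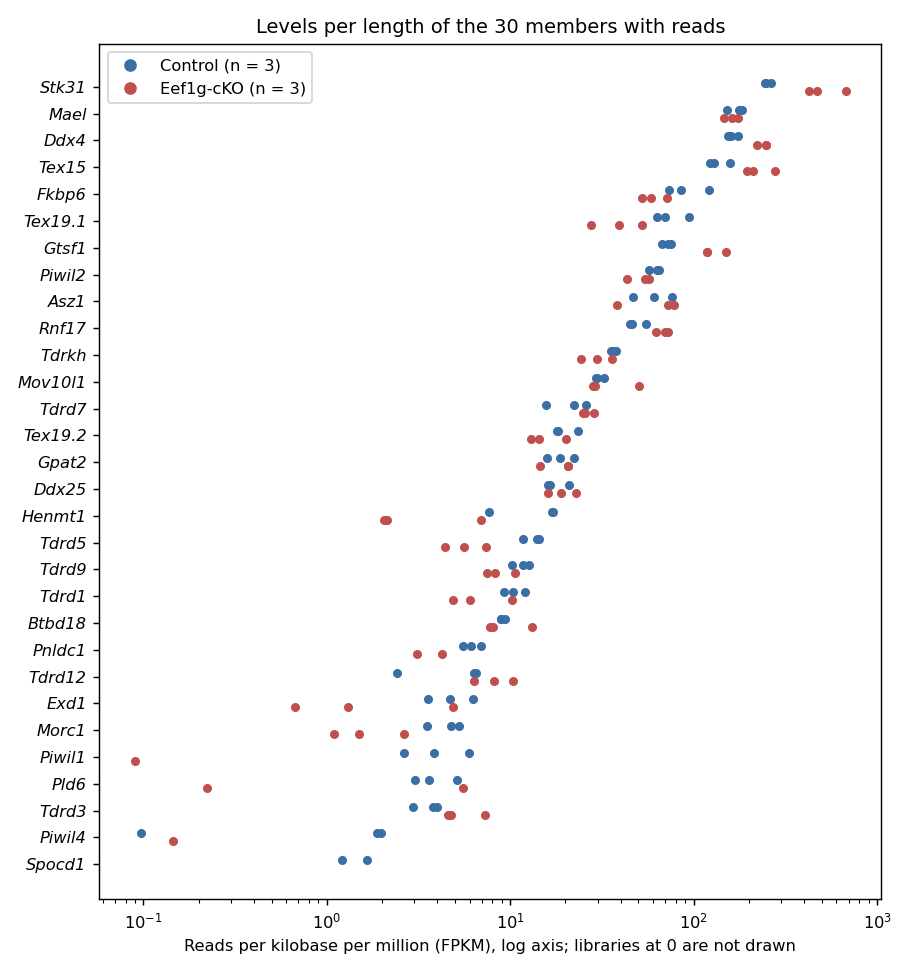
Level per gene length (FPKM, log axis) of the 30 members with reads, ordered by control mean, with 1 point per library and libraries at 0 not drawn. Control means ran from 252 FPKM (Stk31) to 0.96 FPKM (Spocd1), and the Eef1g-cKO points lay to the right for Stk31, Ddx4, Tex15 and Gtsf1 and to the left for Piwil1, Henmt1, Tdrd5 and Tex19.1.

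In Eef1g-cKO spermatocytes, members of the set changed in both directions. Stk31, Gtsf1, Tex15 and Ddx4 rose, and Piwil1, Henmt1, Tdrd5 and Tex19.1 fell, while 19 tested members were not called (edgeR quasi-likelihood test, adjusted p under 0.05 over all tested genes). Piwil1 and Henmt1 were low enough in Eef1g-cKO that they passed the low-count filter through the control group only, so that the counts of lower members are descriptions. Each direction took 14.8% of the 27 tested members, against 7.8% of all tested genes called higher (664 of 8513) and 6.01% called lower (512). With an absolute log2 fold change over 1 also asked for, 1 member was higher (Stk31) and 3 were lower (Piwil1, Henmt1, Tdrd5), beside 3.42% and 4.96% of all tested genes. The 3 Eef1g-cKO libraries lay entirely above the control libraries for 6 members (22.2%; 16.4% of all tested genes) and entirely below them for 8 (29.6%; 18.1%). Nothing particular to the set is read from these shares. The log2 fold change was positive for 12 and negative for 15 tested members, with a median of -0.08 against -0.05 over all tested genes. SEs ran from 0.15 to 1.10, with a median of 0.28.

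**Figure D3:**
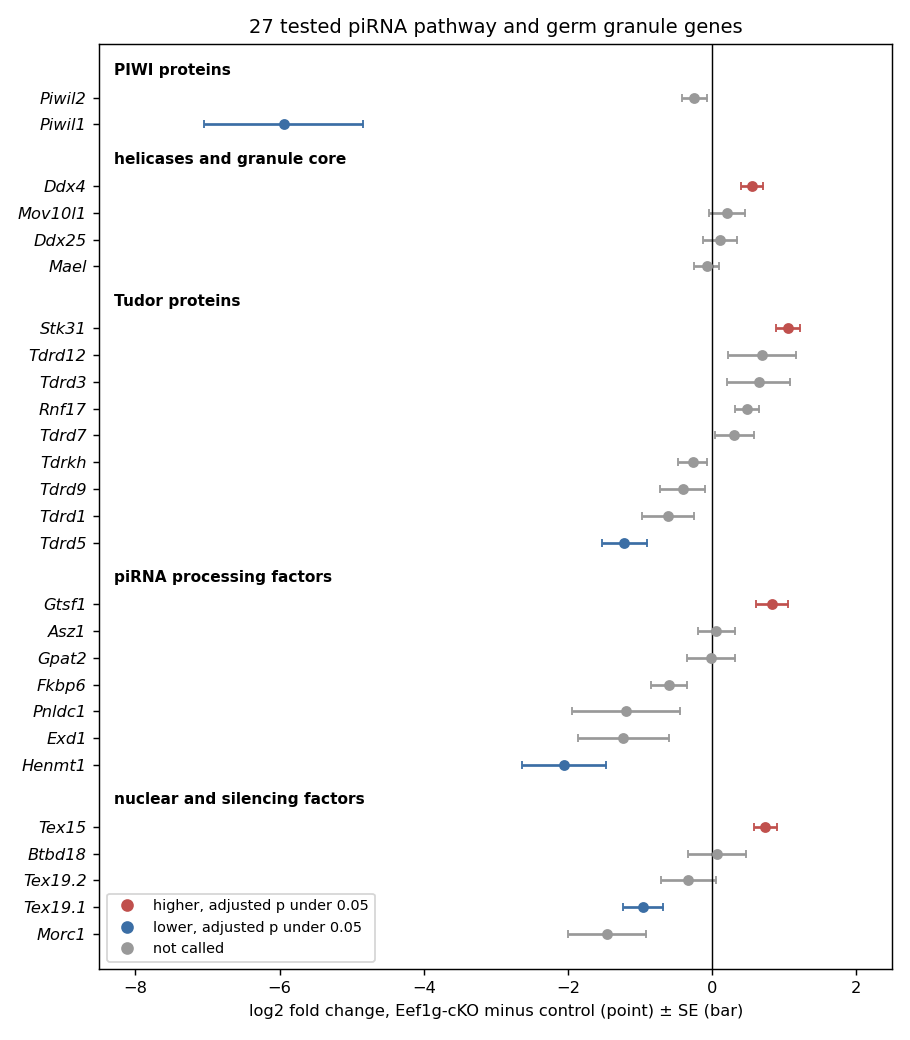
log2 fold change (Eef1g-cKO minus control, points) with its SE (bars) for the 27 tested members, grouped by role. Each of 4 roles held 1 called rise, and Piwil1 had the lowest value, at -5.94.

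The PIWI proteins, which bind the piRNAs, were 3 in number, and 2 of them were tested. Piwil1 (chr5:128702524-128755474, plus strand) had 34, 22 and 30 reads in control and 0, 1 and 0 reads in Eef1g-cKO. The means were 18.1 ± 7.29 and 0.131 ± 0.226 CPM (SD, n = 3 each), with no overlap. The summed reads gave a scaled ratio of control to Eef1g-cKO of 76.3 with an exact 95% counting interval of 13.3 to 3046, and the fit gave an adjusted p of 0.00142 (edgeR). The fitted log2 fold change of -5.94 (SE 1.10) depends on the prior count, and since Piwil1 passed the low-count filter through the control group alone (0 of 3 Eef1g-cKO libraries reached its level of 6.70 CPM by library total), it had to differ to be tested. The span of a gene on the opposite strand, 4930553I04Rik, overlaps that of Piwil1. However, 0% of the 100-base stretches of the longest Piwil1 transcript occur in transcripts of other genes. Whether the counting used strand is not stated.

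Piwil2, the PIWI protein of spermatogonia and early spermatocytes, had far more reads, at 343, 334 and 302 CPM in control against 286, 302 and 230 CPM in Eef1g-cKO. All Eef1g-cKO values lay below all control values, by a narrow margin, and the difference was not called (log2 fold change -0.25, SE 0.18, adjusted p = 0.381, edgeR). Piwil1 therefore stood at 0.0757, 0.0346 and 0.0557 reads per Piwil2 read in control and at 0, 0.0013 and 0 in Eef1g-cKO, a ratio that no scaling between libraries can move. This ratio rests on the same few Piwil1 reads, so that it adds no separate support and carries the limit of the filter. Piwil4 was not tested, with 14, 1 and 18 reads in control and 0, 2 and 0 in Eef1g-cKO. Its scaled ratio of control to Eef1g-cKO was 14.6 (exact 95% counting interval 3.74 to 126), and the control library with 1 read overlapped the Eef1g-cKO libraries.

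Among the 4 helicases and core granule proteins, 1 rose and none fell. Ddx4 (MVH, chr13:112598333-112652475, minus strand), the conserved germ cell helicase of the nuage, had 480, 462 and 528 CPM in control against 746, 743 and 669 CPM in Eef1g-cKO. The groups did not overlap, and the mean went from 490 ± 34.4 to 719 ± 43.8 CPM (SD, n = 3 each), which was 0.55 on the log2 scale (SE 0.15, adjusted p = 0.018 by edgeR). The call was lost without Control 1, Control 2, Control 3 or Eef1g-cKO 1, with adjusted p-values of 0.0737, 0.103, 0.051 and 0.0571 (edgeR), and with the replicate number as a block (0.0582). It was also lost with library totals alone (log2 fold change 0.36, adjusted p = 0.15, edgeR), upper-quartile scaling (0.0617), a minimum of 10 reads per library (0.0689), the GC content offset (0.17) and the offset with the block (0.271), and so was past the threshold in 7 of 17 alternatives.

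The other 3 genes of this role overlapped between groups. Mael had 305, 317 and 264 CPM in control against 280, 302 and 255 CPM in Eef1g-cKO (log2 fold change -0.08, SE 0.17). Mov10l1, the helicase that feeds piRNA precursors into processing, had 128 ± 7.36 CPM in control against 150 ± 53.5 CPM in Eef1g-cKO (0.20, SE 0.25), where the library Eef1g-cKO 3 stood apart at 212 CPM. Ddx25, a helicase of the chromatoid body also known as GRTH, had 124 ± 18.7 and 134 ± 23.0 CPM (0.10, SE 0.24; SD, n = 3).

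The Tudor proteins, which bind methylated PIWI proteins and build the granules, were 10 in number, with 9 tested, 1 higher and 1 lower. Stk31 (chr6:49395604-49469501, plus strand) had 803, 850 and 796 CPM in control against 1512, 1382 and 2182 CPM in Eef1g-cKO. The lowest Eef1g-cKO library stood well above the highest control library, and the mean went from 816 ± 29.6 to 1692 ± 429 CPM (2.07-fold, log2 fold change 1.05, SE 0.16, adjusted p = 0.000376 by edgeR). Stk31 kept its call in all 17 alternatives, 6 of them with 1 library left out. Per Mael read, a ratio chosen after the values were seen and free of scaling, Stk31 had 2.64, 2.68 and 3.01 reads in control and 5.40, 4.59 and 8.56 in Eef1g-cKO. Per read of Ddx4, itself called higher, Stk31 had 1.67, 1.84 and 1.51 reads in control and 2.03, 1.86 and 3.26 in Eef1g-cKO. The read ratios of Tex15 to Ddx4, Tdrd5 to Tdrd1 and Tex19.1 to Tex19.2 overlapped between groups. That of Mov10 to its paralog Mov10l1 did not.

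Tdrd5 (chr1:156255296-156303664, minus strand), needed for retrotransposon silencing and for spermiogenesis, went the other way. It had 99.99, 96.6 and 81.7 CPM in control against 50.9, 30.6 and 38.6 CPM in Eef1g-cKO. The mean fell from 92.8 ± 9.71 to 40.0 ± 10.3 CPM (SD, n = 3 each; log2 fold change -1.22, SE 0.31, adjusted p = 0.0129 by edgeR), with no overlap. Without Control 1, Control 2 or Eef1g-cKO 2 the adjusted p was 0.0662, 0.0637 and 0.0514 (edgeR). A gene on the same strand, A430050A11Rik, and another on the opposite strand, 4930518J20Rik, overlap Tdrd5. Of the 100-base stretches of Tdrd5, 2.10% also occur in 4930518J20Rik.

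Rnf17, a RING finger and Tudor protein that limits ping-pong amplification, had 341, 288 and 282 CPM in control against 387, 454 and 436 CPM in Eef1g-cKO. All Eef1g-cKO libraries lay above control, but the difference missed the threshold (log2 fold change 0.49, SE 0.17, adjusted p = 0.0595 by edgeR), and it passed without Eef1g-cKO 3 (adjusted p = 0.0328, edgeR), by DESeq2 (0.0451) and by limma-voom (0.0287). Tdrd3, an arginine-methylation reader of wider expression, showed the same order at lower counts, with 21.7 ± 3.30 CPM in control and 33.8 ± 9.30 in Eef1g-cKO (0.64, SE 0.44, adjusted p = 0.363 by edgeR; SD, n = 3).

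The remaining 5 tested Tudor genes overlapped between groups. Tdrd1, a partner of MILI in the intermitochondrial cement, had 57.3 ± 7.71 CPM in control against 38.4 ± 15.2 CPM in Eef1g-cKO (log2 fold change -0.62, SE 0.36). Tdrd9, a Tudor helicase that acts with MIWI2, had 62.4 ± 6.37 and 47.4 ± 8.69 CPM (-0.41, SE 0.32), and Tdrkh, the mitochondrial scaffold of piRNA trimming, 224 ± 7.12 and 185 ± 35.5 CPM (-0.27, SE 0.20). Of the stretches of Tdrkh, 38.5% also occur in other genes, Oaz3 on the opposite strand among them, so that its value is uncertain. Tdrd7, a chromatoid body protein, had 83.8 ± 20.3 and 104 ± 7.45 CPM (0.31, SE 0.27), and Tdrd12, which is needed for secondary piRNA production, had 22.1 ± 10.02 and 35.9 ± 8.68 CPM (0.69, SE 0.47; SD, n = 3).

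The factors that make, trim and modify piRNAs were 9 in number, with 7 tested, 1 higher and 1 lower. Gtsf1 (chr15:103402405-103430470, minus strand), a small zinc finger protein that potentiates PIWI slicing, had 93.9, 104 and 100.2 CPM in control against 164, 163 and 209 CPM in Eef1g-cKO. The mean went from 99.5 ± 5.32 to 179 ± 25.8 CPM (SD, n = 3 each; log2 fold change 0.83, SE 0.22, adjusted p = 0.0162 by edgeR), with no overlap. The call was lost when Control 1, Control 2 or Control 3 was left out (adjusted p = 0.0708, 0.057 and 0.0692 by edgeR), with the library totals alone (0.63, adjusted p = 0.0679, edgeR) and in thinned libraries (0.70, adjusted p = 0.0549, edgeR).

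Henmt1 (chr3:108939873-108960774, plus strand), the methyltransferase that protects the 3′ end of piRNAs, had 60, 39 and 81 reads in control and 7, 14 and 12 in Eef1g-cKO. This was 45.8, 20.5 and 45.3 CPM against 5.66, 5.49 and 18.5 CPM, and the highest Eef1g-cKO library stood just below Control 2, the lowest of its group. The difference was -2.06 on the log2 scale (SE 0.59, adjusted p = 0.0243 by edgeR). Only 1 of 3 Eef1g-cKO libraries reached the level of the low-count filter (6.70 CPM), so that Henmt1, like Piwil1, was tested through the control group where it was high, and its call carries the same limit. Without Control 1, Control 3, Eef1g-cKO 1 or Eef1g-cKO 2 the adjusted p was 0.132, 0.134, 0.0837 and 0.0828 (edgeR). Reads of Henmt1 and of Gm9857 on the opposite strand can be confused, since 13.2% of its 100-base stretches occur in other genes.

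Several other processing factors had lower means in Eef1g-cKO without a call. Fkbp6, a co-chaperone of PIWI loading, had 212, 150 and 128 CPM in control against 103, 126 and 91.1 CPM in Eef1g-cKO, with no overlap (log2 fold change -0.60, SE 0.25, adjusted p = 0.116 by edgeR). Pnldc1, the trimming nuclease, had 18.3, 14.7 and 16.2 CPM in control against 11.3, 8.23 and 0 CPM in Eef1g-cKO, also with no overlap (-1.20, SE 0.75, adjusted p = 0.32, edgeR). Exd1, a partner of Tdrd12 in piRNA biogenesis, had 28.2, 21.5 and 38.1 CPM in control against 4.04, 7.84 and 29.3 CPM in Eef1g-cKO (-1.23, SE 0.63, adjusted p = 0.214, edgeR). Exd1 and Pnldc1 reached the level of the filter in 2 of 3 Eef1g-cKO libraries each. The overlap of Exd1 came from Eef1g-cKO 3, and without that library the adjusted p was 0.0132 (edgeR) at a log2 fold change of -2.19. By limma-voom Exd1 also passed (adjusted p = 0.0229), and Fkbp6 passed with a minimum of 10 reads per library (adjusted p = 0.0467, edgeR).

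The mitochondrial members Asz1 and Gpat2 were not called, and Pld6 was too low to be tested. Asz1 (GASZ), an ankyrin repeat protein of the outer membrane, had 173 ± 41.6 CPM in control against 178 ± 60.8 CPM in Eef1g-cKO (log2 fold change 0.05, SE 0.26). Gpat2, a mitochondrial acyltransferase that binds MILI, had 49.5 ± 8.39 and 48.9 ± 9.40 CPM (-0.02, SE 0.34; SD, n = 3). Pld6 (MitoPLD or Zucchini), the endonuclease of the mitochondrial surface, was not tested, with 7, 12 and 16 reads in control and 12, 1 and 0 in Eef1g-cKO. Its scaled ratio of control to Eef1g-cKO was 2.39 (exact 95% counting interval 1.23 to 4.92), and the groups overlapped.

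The nuclear and silencing factors, through which piRNAs and related pathways repress transposons, were 6 in number, with 5 tested, 1 higher and 1 lower. Tex15 (chr8:33516738-33585582, plus strand), a large protein that acts with MIWI2 in transposon methylation and is also needed for meiotic recombination, had 1184, 1513 and 1244 CPM in control against 2023, 1875 and 2683 CPM in Eef1g-cKO. The groups did not overlap, and the mean went from 1314 ± 175 to 2194 ± 430 CPM (SD, n = 3 each; log2 fold change 0.74, SE 0.16, adjusted p = 0.00381 by edgeR). Tex15 kept its call with any 1 library left out, and lost it with a GC content offset (0.31, adjusted p = 0.221, edgeR) and with the offset and the replicate block together (0.30, adjusted p = 0.33, edgeR). Tex19.1 (chr11:121146143-121148319, plus strand), a germ cell protein that restrains retrotransposons, had 177, 118 and 131 CPM in control against 51.8, 72.9 and 97.3 CPM in Eef1g-cKO, again with no overlap. The mean of Tex19.1 was 142 ± 31.0 CPM in control and 74.0 ± 22.8 CPM in the knockout (log2 fold change -0.96, SE 0.28, adjusted p = 0.0267 by edgeR). Without Control 1, Control 3, Eef1g-cKO 1 or Eef1g-cKO 2 the adjusted p of Tex19.1 was 0.176, 0.073, 0.124 and 0.0603 (edgeR), and it was 0.0551 with the replicate number as a block, 0.102 with the GC content offset and 0.143 with both.

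Tex19.2, the neighbouring paralog of Tex19.1, had 40.7 ± 6.47 CPM in control against 32.4 ± 7.76 CPM in Eef1g-cKO and overlapped between groups (log2 fold change -0.33, SE 0.38, adjusted p = 0.623 by edgeR). Morc1, an ATPase of transposon silencing, had 22.9, 34.1 and 30.8 CPM in control against 9.70, 7.06 and 17.0 CPM in Eef1g-cKO. All its Eef1g-cKO values lay below control, short of the threshold (-1.46, SE 0.54, adjusted p = 0.0799, edgeR), and it passed without Eef1g-cKO 3 (-1.79, adjusted p = 0.0271, edgeR), with library totals alone (0.0494), with a minimum of 10 reads per library (0.0145) and by limma-voom (0.0236). Btbd18, a nuclear factor for the transcription of pachytene piRNA precursors, had 31.9 ± 0.811 and 34.0 ± 10.7 CPM (0.06, SE 0.40; SD, n = 3). Spocd1, a partner of MIWI2 in methylation of young transposons, had 7, 0 and 7 reads in control and none in Eef1g-cKO, at least 4.14-fold lower against a floor of 3 reads over the group; it was not tested, and the control library at 0 overlapped the others.

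**Figure D4:**
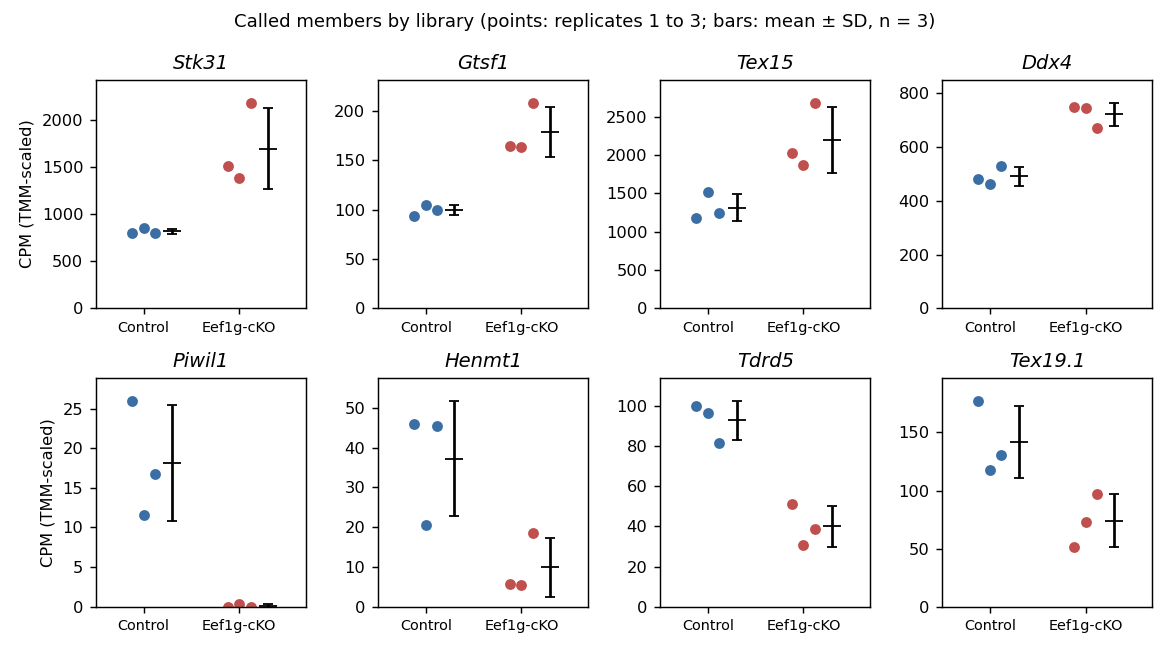
Scaled level (CPM, linear axes from 0) of the 8 called members, with 1 point per library and the mean ± SD (n = 3 each) beside them. In each panel the 2 genotypes do not overlap, from Stk31 (796 to 850 against 1382 to 2182 CPM) to Henmt1 (20.5 to 45.8 against 5.49 to 18.5 CPM).

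The rises of Tex15 and Stk31, genes of high level, moved the set's total. Reads of all members made up 0.539%, 0.560% and 0.535% of all reads in control and 0.632%, 0.628% and 0.680% in Eef1g-cKO. Without Tex15 and Stk31 the shares were 0.333%, 0.314% and 0.318% in control and 0.298%, 0.310% and 0.267% in Eef1g-cKO. These 2 genes were left out after their values were seen, and the shares divide by library totals without the scaling used for CPM. The scaled library sizes lay above the totals in each control library and below them in each Eef1g-cKO library. Scaling would lower the control shares and raise those of Eef1g-cKO, so no fall of the remaining members is read from these values. Tex15, Stk31 and Ddx4, named here after their values were seen, together took 47.4% to 52.4% of the member reads in control and 62.1% to 69.1% in Eef1g-cKO. Members above the 3-read floor numbered 30, 28 and 30 in control and 27, 26 and 25 in Eef1g-cKO, with the shallowest library, Eef1g-cKO 3, at the lowest number. The deepest library, Eef1g-cKO 2, had 26, also below each control. With at least 1 read, members numbered 30, 29 and 30 in control and 27, 29 and 25 in Eef1g-cKO. Over the whole table, genes with at least 1 read numbered 14903, 15761 and 15333 in control and 12770, 14514 and 11174 in Eef1g-cKO. Nothing particular to the members is read from these counts. The libraries of Eef1g-cKO also spread more, with a median coefficient of variation over the tested members of 24.1% against 13.4% in control (33.0% and 21.9% over all tested genes).

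The change of the members ran with the GC content of their transcripts. Over the 27 tested members the log2 fold change and the GC content of the longest annotated transcript had a Pearson r of -0.44 and a Spearman rho of -0.58, and over 8508 tested genes -0.25 and -0.28. These are correlations across genes of the same 6 libraries, and genes are not independent replicates. Among the called members, Tex15 (37.4%), Stk31 (40.1%), Ddx4 (43.1%) and Gtsf1 (47.4%) had less GC than Tdrd5 (49.2%), Henmt1 (49.9%), Piwil1 (52.5%) and Tex19.1 (52.6%). With an offset for GC content in the fit, Tex15 (0.31, adjusted p = 0.221), Ddx4 (0.33, adjusted p = 0.17) and Tex19.1 (-0.72, adjusted p = 0.102; edgeR) were no longer called. Stk31 (0.72, adjusted p = 0.0105), Gtsf1 (0.82, adjusted p = 0.0215), Tdrd5 (-1.13, adjusted p = 0.0245), Henmt1 (-1.94, adjusted p = 0.0395) and Piwil1 (-5.75, adjusted p = 0.00262; edgeR) stayed past the threshold.

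**Figure D5:**
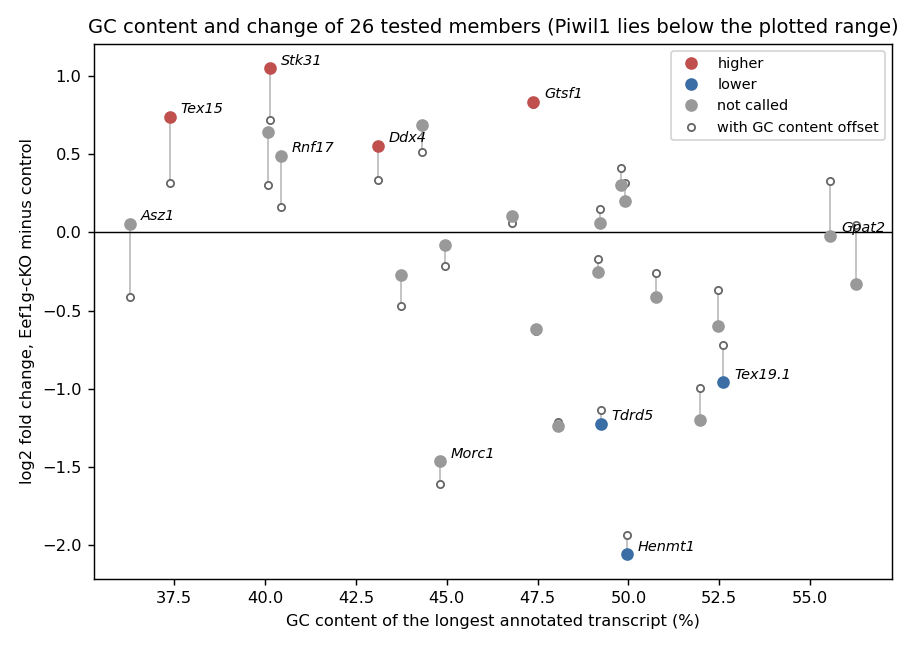
GC content of the longest annotated transcript (%) against the log2 fold change (Eef1g-cKO minus control) of 26 tested members, with filled points for the main fit and open points for the fit with a GC content offset. Members of low GC content such as Tex15 (0.74 to 0.31) moved down with the offset and those of high GC content such as Tex19.1 (-0.96 to -0.72) moved up.

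Genes around the pathway were read from 2 further lists. Of 16 other piRNA and granule genes, 10 were tested, 1 rose and 1 fell (median log2 fold change -0.12). Mybl1 (A-MYB), the transcription factor of the pachytene piRNA programme, rose by 1.38 on the log2 scale (SE 0.28, adjusted p = 0.0028 by edgeR; 0.0513 with the replicate block and GC content offset), with means of 49.4 ± 7.24 and 130 ± 27.1 CPM (SD, n = 3). Mov10, the widely expressed paralog of Mov10l1, had 17, 60 and 49 reads in control and 2, 6 and 2 in Eef1g-cKO (-3.36, SE 0.72, adjusted p = 0.00409 by edgeR), and without Control 2 its adjusted p was 0.0521 (edgeR). No Eef1g-cKO library reached the level of the filter for Mov10 (0 of 3), so that it too was tested through the control group and had to differ, and with a minimum of 10 reads per library it was not tested. Of 13 genes of the AGO and microRNA machinery, 12 were tested. Ago4, an Argonaute present in meiotic nuclei, rose from 61.4 ± 21.9 to 124 ± 9.29 CPM (1.00, SE 0.29, adjusted p = 0.025 by edgeR), a call lost without Control 1 (adjusted p = 0.106, edgeR) or Control 2 (0.135), with library totals alone (0.0859) and in thinned libraries (0.0648). By edgeR, 0 genes of that list fell, also at an unadjusted p under 0.05, and by DESeq2 and limma-voom 0 were called lower. The median was -0.14.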

How the data were processed

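Amplified polyA cDNA of sorted L/Z spermatocytes was sequenced as paired-end reads from 3 control and 3 Eef1g-cKO samples. According to the submitters' processing notes, the authors trimmed reads with fastp, aligned them with HISAT2 to mm10, counted them per gene with featureCounts and tested them with DESeq2. The deposited values used here are the authors' raw read counts per Ensembl gene, with gene lengths, and the strand setting of the counting is not given in the sources used here.

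Counts were tested with edgeR 4.0.16 (R 4.3.3; TMM scaling, quasi-likelihood F test, 2-sided, Benjamini-Hochberg over all tested genes). The filter (filterByExpr, minimum count 10, minimum total 15) kept 8513 genes, which held 98.1% of reads. CPM are TMM-scaled, and FPKM divide by the gene length. The procedure was also run on simulated counts with known changes in a small part of the genes. Those counts differed between libraries in depth but not in scaling factors, so no support for the scaling is drawn from them. Replicate libraries differed by more than sampling noise (chi-square per degree of freedom 6.37 or more), and none was merged. The value was highest between Eef1g-cKO 2 and Eef1g-cKO 3, at 19.2, and pairs across the genotypes ran from 17.1 to 26.8. Genes of ribosomal RNA took 9.23% of the reads in Eef1g-cKO 3, against 2.73% to 6.29% in the other libraries. Positions follow GRCm38, and 98.3% of 54409 gene IDs shared by both sources had the same position in GENCODE M21. GC content came from GENCODE transcripts and promoter windows from RefSeq. Alternatives were RLE and upper-quartile scaling, library totals, no filter, a minimum of 10 reads per library, limma-voom (limma 3.58.1), DESeq2 1.42.0, a replicate block, a GC content offset, both together, thinned libraries, and leaving out each library.

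The members and lists were chosen with earlier results of these data known. Every member is named. Other named genes were Eef1g, up to 5 called genes per direction of each further list, and the 2 genes of highest mean count in each marker list, together with markers at 0.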

Additional observations from a re-analysis of the deposited data

How the results depend on the processing

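The results named in the report were recomputed under 11 alternatives and with each of the 6 libraries left out. Stk31 kept its call in all 17, and no called member changed direction. Piwil1 kept its call in the 15 that tested it, and was not tested with a minimum of 10 reads per library or in thinned libraries. In the main fit Piwil1 passed the filter through the control group alone, so that its repeated calls are descriptions. The count of higher members (4) was 2 with library totals alone, 2 with the GC content offset, 2 with the replicate block and GC content offset together, and 2 to 5 with 1 library left out. That of lower members (4) was 1 to 6 with 1 library left out, at 1 without Control 1 or Eef1g-cKO 2 and at 6 without Eef1g-cKO 3. With the fold limit, the count of higher members (1) was 0 under upper-quartile scaling, library totals alone, a minimum of 10 reads per library, limma-voom, the GC content offset and the block with the GC content offset, and 0 to 1 with 1 library left out. The count of lower members with that limit (3) was 5 with library totals alone, 6 with limma-voom and 1 to 6 with 1 library left out. The median of the tested members (-0.08) was -0.20 under upper-quartile scaling, -0.27 with library totals alone, -0.22 unfiltered, -0.17 with the GC content offset, -0.18 with the block and GC content offset, -0.16 in thinned libraries and -0.25 to -0.12 with 1 library left out. Upper-quartile scaling and library totals shifted the median of all tested genes by -0.12 and -0.19. With these scalings the calls over all genes went from 664 higher and 512 lower to 463 and 639, and to 333 and 643. Other piRNA and granule genes called higher (1) numbered 2 without a filter and by DESeq2, 0 with the block and GC content offset and 1 to 2 with 1 library left out, and those called lower (1) numbered 0 with a minimum of 10 reads per library, 0 in thinned libraries and 0 to 1 with 1 library left out. In the AGO list the higher count (1) was 0 with library totals alone and in thinned libraries and 0 to 1 with 1 library left out. Eef1g missed the threshold without a filter (-0.64), with the replicate block (-0.69), with the GC content offset (-0.47) and with both (-0.48), and lay between -0.75 and -0.56 with 1 library left out. The cause of these shifts was not tested.

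Among members never called in the report, the sign turned in 7. Ddx25 was -0.020 under upper-quartile scaling, -0.10 with library totals and -0.041 with a minimum of 10 reads per library. Mov10l1 was -0.0086 with library totals, -0.0096 by limma-voom and -0.072 to 0.37 with 1 library left out, and Mael was -0.15 to 0.014 with 1 library left out. Asz1 was -0.071 under upper-quartile scaling, -0.12 with library totals, -0.079 with at least 10 reads, -0.41 with the GC content offset, -0.46 with the block and GC content offset, -0.10 in thinned libraries and -0.10 to 0.33 with 1 library left out. Gpat2 was 0.021 without a filter, 0.33 with the GC content offset, 0.34 with the block and GC content offset, 0.024 in thinned libraries and -0.13 to 0.16 with 1 library left out. Tex19.2 was 0.046 with the GC content offset and 0.044 with the block added. Btbd18 was -0.060 under upper-quartile scaling, -0.14 with library totals, -0.089 with at least 10 reads, -0.10 by limma-voom and -0.16 to 0.22 with 1 library left out.

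The replicate numbers did not pair the libraries: deviations of same-numbered libraries from their group means correlated at -0.04, 0.02 and -0.05, and no library pair of the same number stood out. With the number as a block, 3 members were higher (Gtsf1, Stk31, Tex15) and 3 lower (Henmt1, Piwil1, Tdrd5), and over all genes 496 were higher and 377 lower. Depth limits the low members: with 3 reads worth up to 4.63 CPM, a loss in Piwil4, Pld6 or Spocd1 could not be sized closely.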
